A study of Sus scrofa with 30 samples.

Results

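Untreated cardiac arrest of up to 30 min was followed in pig cerebral cortex as a series of 4 groups, with 3 arrays each, which make up 12 of the 30 arrays of the series. The arrays were chosen by their titles, which give 0, 5, 20 or 30 min of arrest without treatment, and they are called CA0, CA5, CA20 and CA30 here. Pigs of a Swedish triple breed, of both sexes and 12 to 14 weeks old (mean weight 25.8 ± 1.3 kg, error as the labels give it), were anaesthetised with pentobarbital at 8 mg/kg/h and ventilated with 30% oxygen. Ventricular fibrillation was then induced by an electric current through the chest. The brains of CA0 pigs were removed immediately after the arrest, so CA0 animals had also had anaesthesia, ventilation and a fibrillating current, and no pig of these groups was spared the arrest. Per the labels, all animals received potassium chloride before the brain was taken. A further group served as a comparison. SAL30 pigs had 12 min of arrest and 8 min of chest compressions, and their cortex was taken 30 min after return of spontaneous circulation (ROSC), during an infusion of saline at 55 ml/kg/h. The labels call the 3 arrays of a group biological replicates.

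Cardiac arrest stops the blood supply of the brain, which holds little oxygen or glucose of its own. ATP runs out within minutes, the sodium and potassium pumps fail, neurons depolarise, calcium enters and glutamate is released. Transcription itself needs ATP. When flow returns, immediate early genes such as FOS and JUN are transcribed, and misfolded proteins release heat shock factor onto chaperone genes. Each probe set was therefore asked whether its signal moved with the minutes of arrest, and whether it differed between late arrest (CA20 and CA30, 6 arrays) and early arrest (CA0 and CA5, 6 arrays).

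The values are array intensities, which the authors scaled per array, and they were analysed as log2(intensity + 16). Median intensity lay between 88.0 and 97.6 on the 12 arrays, and arrays correlated with each other at r = 0.956 to 0.980. After control probe sets and the dimmest 30 percent were left out, 16799 probe sets were tested, of which 7885 carried 1 gene symbol. The number of arrays limits the precision. Markers of cortex were present on all 12 arrays: the summed intensity of 15 neuronal markers, such as the synaptic gene SNAP25, ranged from 61312 to 69724 in late arrest and from 61574 to 78289 in early arrest. That of 12 astrocyte markers ranged from 53427 to 65287 in late arrest and from 55122 to 67852 in early arrest.

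The CA20 arrays stood apart in 2 ways that bear on every comparison below. First, DRD2 and TTR, genes of other structures, were bright there. DRD2, the dopamine receptor that marks the striatum, had 3.29, 2.27 and 4.34 in CA0, 9.44, 5.44 and 12.2 in CA5, 197, 54.1 and 146 in CA20 and 6.46, 6.02 and 6.64 in CA30. TTR, the thyroxine carrier made by the choroid plexus, had 1.26, 1.40 and 1.72 in CA0, 44.8, 17.8 and 54.7 in CA5, 193, 11962 and 116 in CA20 and 3.21, 4.21 and 4.13 in CA30. For both genes every CA20 array lay above the other 9, and TTR in 1 CA20 array lay far above all others. Both lay below the intensity filter over the series. When no filter was applied, DRD2 was higher in CA20 than in CA0 (log2 difference 2.80 ± 0.31, SE, limma adjusted p = 0.0167), and the difference for TTR did not pass (5.31 ± 1.18, limma adjusted p = 0.474). The summed intensity of 4 choroid plexus markers ranged from 183 to 13361 in late arrest and from 229.8 to 497 in early arrest. In CA20 it was 461, 13361 and 391, so replicates 1 and 3 lay within the early range. AQP1 of that list had 50.7, 1161 and 76.9 in CA20 and 29.5 to 380 on the other 9 arrays. FOLR1 had 214, 234 and 197 in CA20 and 102 to 210 on the others, and PRLR did not exceed 5.07. TCF7L2, the other measured marker of neighbouring brain regions, had 71.2, 88.5 and 99.2 in CA20 and 52.3 to 100 on the others. The part of tissue other than cortex in the results was not tested.

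Second, the 3′/5′ ratio of control transcripts was uneven there. Reverse transcription starts at the 3′ end of an RNA, so that broken RNA or short cDNA leaves a weaker signal at the 5′ end and a higher ratio. The mean log2 ratio over GAPDH, actin and EF1A was 1.70, 1.66 and 1.92 in CA0, 1.42, 1.48 and 1.66 in CA5, 1.16, 2.21 and 2.71 in CA20, and 1.07, 1.45 and 1.12 in CA30. The highest values of all 12 arrays were those of 2 CA20 arrays, while the third CA20 array was among the lowest. The ratio averaged 1.62 ± 0.68 in late arrest and 1.64 ± 0.18 in early arrest (SD, n = 6 each), a difference of -0.02 (two-sided exact permutation test p = 0.935, smallest possible p = 0.00216). Across the 12 arrays the ratio and the minutes had r = -0.24 (permutation p = 0.471) and Spearman rho = -0.52 (permutation p = 0.0971). Without the 2 arrays farthest from the median ratio, which are both CA20 arrays, r was -0.83 and rho -0.89 over 10 arrays. Over all 12 arrays r was already below 0. These 2 arrays were chosen by their high ratio and both are late, so leaving them out by itself makes r more negative, and no p is given. This was the only correlation across arrays that was computed.

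**Figure D1:**
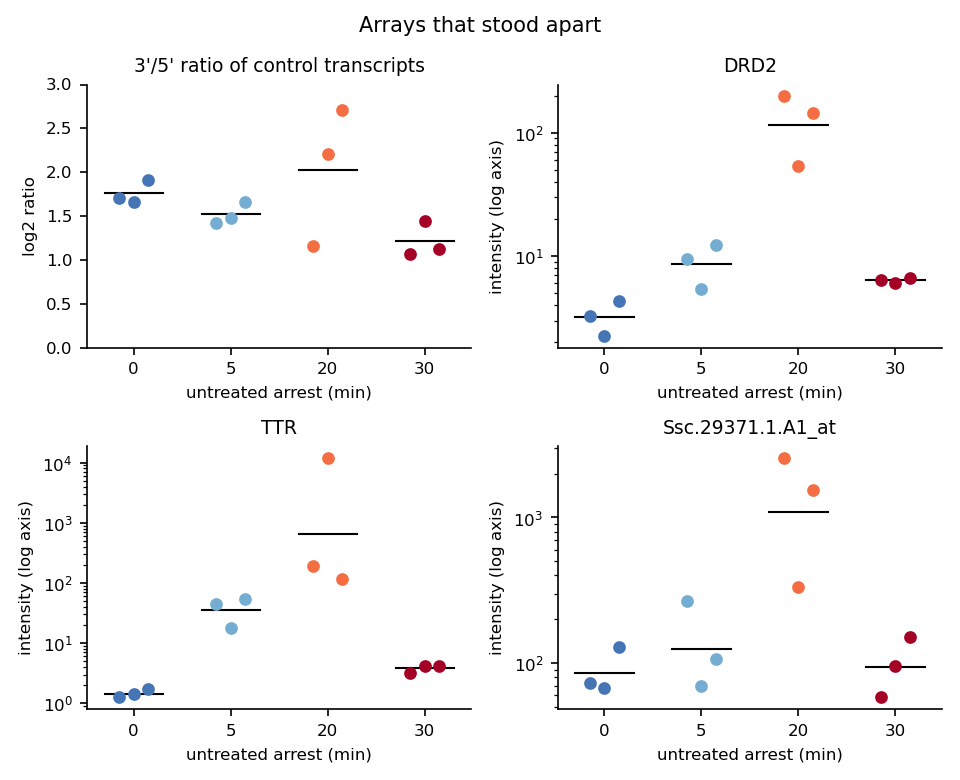
The 3′/5′ log2 ratio of control transcripts, and the intensity of DRD2, TTR and an unnamed probe set on a log axis, by minutes of untreated arrest. Each point is 1 array, 3 per group, and lines are group means (geometric for intensity). All 3 CA20 arrays lie above the other 9 for the 3 transcripts, whereas 2 CA20 arrays hold the highest ratios and the other does not.

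Over 30 min of arrest almost no probe set was called as moving with time. 1 of 16799 probe sets (0.00595%) passed in the regression on minutes, and 1 (0.00595%) in late against early arrest, by limma with Benjamini-Hochberg adjustment at 0.05. It was the same probe set, Ssc.21096.1.S1_at, which has no gene symbol in the platform table. An unadjusted p under 0.05 was found for 683 probe sets (4.07%) over minutes and for 658 (3.92%) in late against early arrest, while 5% of those tested is 840. The smallest adjusted p of a probe set with 1 gene symbol in late against early arrest was 0.998.

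Ssc.21096.1.S1_at had intensities of 129.8, 115 and 131 in CA0, 235, 136 and 106 in CA5, 362, 616 and 357 in CA20 and 514, 425 and 747 in CA30. All 6 late arrays lay above all 6 early arrays, and CA5 overlapped CA0. It averaged 504 ± 154 in late arrest and 142 ± 47.0 in early arrest (SD, n = 6 each), a log2 difference of 1.71 ± 0.20 (SE, 95% interval 1.29 to 2.13, limma adjusted p = 0.00524). The fitted line rose by 2.15 ± 0.25 on the log2 scale over 30 min (limma adjusted p = 0.00561). Against CA0 alone the log2 difference was 0.25 ± 0.28 in CA5, 1.66 ± 0.28 in CA20 and 1.997 ± 0.28 in CA30, and none of these 3 passed (limma adjusted p = 1, 0.292 and 0.0965). In SAL30, after blood flow had returned, it had 116, 139 and 119.7, a log2 difference of -1.84 ± 0.21 from late arrest. The probe set was chosen by its high late arrays, which this difference also uses, so no p is given here. The SAL30 mean of 125 ± 12.4 lay beside a CA0 mean of 125 ± 8.72 (SD, n = 3 each). Its slope on the 3′/5′ ratio was -0.28 ± 0.52 log2 per unit of log2 ratio (limma adjusted p = 0.842).

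The late against early call for Ssc.21096.1.S1_at was lost when the group CA0 or the group CA30 was left out, with log2 differences of 1.58 and 1.54 (limma adjusted p = 0.981 and 0.151). The call over minutes was lost without CA30 replicate 3, with a slope of 0.068 log2 per min, against 0.072 over all 12 arrays (limma adjusted p = 0.0509 without it). Without the group CA20, whose arrays stood apart, it passed with a log2 difference of 1.87 ± 0.22 (limma adjusted p = 0.0239).

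**Figure D2:**
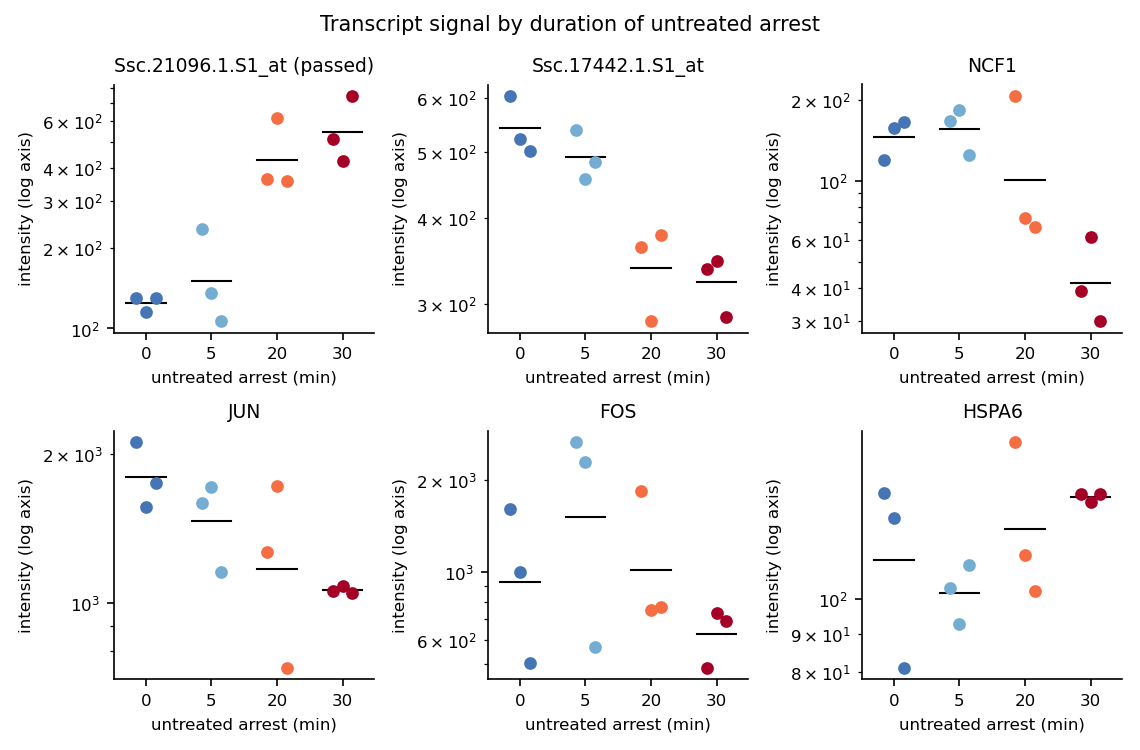
Intensity, on log axes, of 6 transcripts by minutes of untreated arrest. Each point is 1 array, 3 per group, and lines are geometric means. For Ssc.21096.1.S1_at the 6 late arrays lie above the 6 early arrays; of the other 5, Ssc.17442.1.S1_at also shows groups that do not overlap, in the other direction, and the remaining 4 overlap.

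The probe set next to the threshold did not pass. CALB2, NCF1 and TMEM128, given after it, were not near the threshold in late against early arrest over all 12 arrays. Ssc.17442.1.S1_at, also with no symbol, had 605, 524 and 503 in CA0, 539.6, 457 and 484 in CA5, 363, 283 and 379 in CA20 and 337, 346 and 286 in CA30. All 6 late arrays lay below all 6 early arrays, with a log2 difference of -0.62 ± 0.10 (limma adjusted p = 0.106). CALB2, the calcium-binding protein calretinin of a class of inhibitory neurons, had 128, 88.8 and 303 in CA0, 91.7, 156 and 125 in CA5, 369, 521 and 445 in CA20 and 234, 169 and 347 in CA30. It was brightest in CA20, 1 CA0 array lay within the late range, and its log2 difference of 1.16 ± 0.28 did not pass (limma adjusted p = 0.998). NCF1, a cytosolic subunit of the NADPH oxidase of phagocytes, had 119.8, 157 and 166 in CA0, 167, 184 and 125 in CA5, 207, 73.0 and 67.3 in CA20 and 38.7, 62.0 and 30.0 in CA30. CA20 replicate 1 lay above all early arrays, and the other 5 late arrays lay below them. NCF1 did not pass over all 12 arrays, and it passed without that array (log2 difference -1.30 ± 0.18, limma adjusted p = 0.0448) or without the CA20 group (-1.53 ± 0.19, limma adjusted p = 0.0239). Another NCF1 probe set, with 3.45 to 37.4 on the 12 arrays, had a late against early log2 difference of 0.02 with no filter. NCF1 was singled out after its values were seen. TMEM128, a transmembrane protein likewise singled out, had 382, 406 and 442 in CA0, 588, 686 and 800.5 in CA5, 715, 827 and 736 in CA20 and 728, 784 and 692 in CA30. All CA0 arrays lay below all others, CA5 included, and it passed in late against early arrest where the CA5 group was left out (log2 difference 0.84 ± 0.10, limma adjusted p = 0.0186).

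In late arrest 11 probe sets (0.0655%) lay above early arrest on every array and 10 (0.0595%) lay below it. With arrays in random order, 6 and 6 arrays show no overlap, in either direction, for a fraction of 0.00216. The counts together did not exceed that fraction, so the lack of overlap does not mark these probe sets out. Those of them with 1 gene symbol did not pass the test, so their values are given as a description. FBXW7, the substrate receptor of a ubiquitin ligase, ranged from 131 to 189.9 in late arrest and from 193 to 273 in early arrest, a log2 difference of -0.43 ± 0.12. Its other probe sets gave log2 differences from -0.33 to -0.06. HSPA8, the constitutive cytosolic chaperone HSC70, averaged 1113 ± 63.1 in late arrest and 950.1 ± 58.3 in early arrest with 1 probe set (0.23 ± 0.07). With the brightest of its probe sets it averaged 8534 ± 624 in late arrest and 9003 ± 608 in early arrest (-0.08 ± 0.07), so the 2 values differed in sign. The other genes above early arrest were PDE6C, the cone phosphodiesterase (0.36 ± 0.11), WDR41 (0.32 ± 0.10), TMEM231 (0.46 ± 0.16), TMEM216 (0.40 ± 0.17), APITD1, a histone-fold protein (0.38 ± 0.15), and SUPV3L1, an RNA helicase of mitochondria (0.30 ± 0.12). The others below it were XPNPEP1, a cytosolic aminopeptidase (-0.22 ± 0.07), AKAP2, an anchor of protein kinase A (-0.17 ± 0.06), and BCCIP (-0.16 ± 0.06).

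No probe set passed in the test of departure from a straight line over minutes (0 of 16799, 0%), and none passed in CA5, CA20 or CA30 against CA0 (0% each) by limma. An unadjusted p under 0.05 was found for 1189 probe sets in the test of departure from a line, and for 448 in CA5, 961 in CA20 and 991 in CA30. Against the 840 given above for the same cutoff, the counts for departure from a line, CA20 and CA30 were higher. The count for CA5 was lower, as were those over minutes and in late against early arrest. These counts of 0 depended on single arrays. Without CA20 replicate 2, the array of the highest TTR, 14 probe sets passed in CA20 against CA0. They included LPL, lipoprotein lipase, with a log2 difference of 3.06 ± 0.37 (limma adjusted p = 0.00796), and RXRG, a retinoid receptor enriched in striatum, with 1.57 ± 0.24 (limma adjusted p = 0.0420). The LPL probe set had 20.8, 28.7 and 27.1 in CA0, 44.8, 38.7 and 47.0 in CA5, 507, 33.5 and 213 in CA20 and 27.1, 74.7 and 79.2 in CA30, and RXRG had 50.4, 52.9 and 41.3 in CA0, 48.9, 53.7 and 57.0 in CA5, 218, 61.8 and 138 in CA20 and 84.8, 50.8 and 52.9 in CA30. CA20 replicates 1 and 3 were the brightest for both, as they were for DRD2. The other LPL probe set had 92.4, 30.5 and 36.2 in CA20, against 13.4 to 41.4 on the other 9 arrays. With no filter its log2 difference from CA0 was 0.65 ± 0.30. Without CA0 replicate 3, the unnamed probe set Ssc.17849.1.A1_at passed at all 3 times. It had 35.1, 41.1 and 279 in CA0, 329, 588 and 519 in CA5, 397, 521 and 692 in CA20 and 641, 405 and 612 in CA30, so that 2 CA0 arrays were low and the other 10 arrays were not.

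The precision of these values bounds what was not seen. The 95% interval of the late minus early difference had a median half-width of 0.29 on the log2 scale, with 0.19 and 0.47 at the 10th and 90th percentiles. The interval lay within 2-fold in either direction for 16445 probe sets (97.9%) and within 1.5-fold for 13855 (82.5%). The median size of the difference was 0.09, 21 probe sets exceeded 1 on the log2 scale, and the values ran from -1.99 to 1.71. The half-widths are not the limit of detection after adjustment, and larger changes could also fail to pass with 6 arrays against 6. Ssc.17442.1.S1_at (-0.62, 95% interval -0.83 to -0.41) and CALB2 (1.16) did not pass.

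The groups also allow the late against early comparison to be made in 2 parts that share no array, CA20 against CA0 and CA30 against CA5. Of the 100 probe sets highest in CA20 against CA0, 54 were above 0 in CA30 against CA5, where 54.1% of all tested were. Of the 100 lowest, 39 were below 0. Starting from CA30 against CA5, 45 of the 100 highest were above 0 in CA20 against CA0, where 51.3% of all were, and 48 of the 100 lowest were below 0. Over all probe sets 49.1% had the same sign in both, with r = -0.03 across probe sets, which are not independent replicates. The extremes of one part thus did not keep their direction in the other more often than probe sets in general. Ssc.21096.1.S1_at had log2 differences of 1.66 and 1.75, but it was chosen by its late against early difference, which averages both parts.

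Immediate early genes, switched on without new protein synthesis, did not pass in late against early arrest. Of 27 immediate early genes measured, 0 passed in late against early arrest (0.00595% of all probe sets passed), 7 were above 0 and 20 below, with a median log2 difference of -0.12, against 0.01 over all probe sets. Set against CA0, which the 3 comparisons share, CA5 had 21 above 0 and 6 below (median 0.26), CA20 had 16 above and 11 below (median 0.12) and CA30 had 11 above and 16 below (median -0.05). The members were thus mostly higher in CA5 than in CA0, and early arrest holds both. The interval of 24 of the 27 lay within 2-fold, and FOS, BTG2 and ZFP36 were the exceptions. JUN, a subunit of the AP-1 transcription factor, had 2115, 1565 and 1750.3 in CA0, 1592, 1721 and 1159 in CA5, 1269.6, 1722 and 741 in CA20 and 1057, 1084 and 1049 in CA30. The CA30 arrays lay close together below all CA0 arrays, and late and early arrest overlapped. JUN averaged 1154 ± 326 in late arrest and 1650.1 ± 311 in early arrest (SD, n = 6 each), a log2 difference of -0.53 ± 0.17 (SE, limma adjusted p = 0.998). GADD45B, a stress-induced signalling protein, averaged 139 ± 28.7 in late arrest and 215 ± 62.5 in early arrest, with -0.55 ± 0.18, and NR4A3, a nuclear receptor, averaged 218 ± 61.8 in late arrest and 301 ± 82.8 in early arrest, with -0.44 ± 0.19. These 3 had unadjusted p under 0.05 and did not pass. Another GADD45B probe set gave a log2 difference of -0.15.

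FOS, the partner of JUN in AP-1, had 1605, 997 and 503 in CA0, 2652, 2287 and 571 in CA5, 1832, 750.1 and 769 in CA20 and 487, 735 and 691 in CA30. Arrays of the same time differed widely, with both the highest and one of the lowest values in CA5. ATF3, a stress-induced transcription factor, had 34.2, 39.5 and 23.9 in CA0, 118, 85.2 and 28.1 in CA5, 77.6, 43.3 and 77.6 in CA20 and 21.2, 31.2 and 28.2 in CA30, and BTG2, an antiproliferative gene, had 114, 18.9 and 17.9 in CA0, 189, 86.2 and 19.0 in CA5, 119, 31.3 and 56.5 in CA20 and 31.4, 28.4 and 23.0 in CA30. CA5 replicates 1 and 2 and CA20 replicate 1 were high for all 3 of these genes. CA0 replicate 1, with no minutes of arrest, was also high for FOS (1605) and BTG2 (114), though not for ATF3 (34.2). For BTG2 it lay above CA5 replicate 2. The log2 difference of late from early arrest was -0.56 ± 0.40 for FOS, -0.12 ± 0.32 for ATF3, -0.26 ± 0.45 for BTG2 and -0.23 ± 0.34 for EGR1, a zinc-finger factor of the same class.

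Of 21 heat shock and chaperone genes, 0 passed, 4 were above 0 and 17 below, the median was -0.09, and all 21 intervals lay within 2-fold. HSPA6, a strictly stress-induced HSP70, had 138, 128 and 81.1 in CA0, 103, 92.7 and 111 in CA5, 161, 115 and 102 in CA20 and 138, 134 and 138 in CA30. All 3 CA30 arrays lay between 134 and 138, within the CA0 range. Its log2 difference was 0.24 ± 0.14 (SE), with averages of 131 ± 20.5 in late arrest and 109 ± 21.4 in early arrest (SD, n = 6 each). HSP70.2, the inducible HSP70 gene of the pig, averaged 1184 ± 254 in late arrest and 1691 ± 1383 in early arrest, where a single CA0 array with 4472 set the spread of early arrest. DNAJB1, the co-chaperone of HSP70, averaged 387 ± 64.2 in late arrest and 478 ± 200.4 in early arrest (-0.23 ± 0.19).

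Hypoxia-inducible and glycolytic genes did not pass. Of 28 measured, 0 passed, 10 were above 0 and 18 below, with a median of -0.07, and all 28 intervals lay within 2-fold. VEGFA, the angiogenic growth factor induced by hypoxia, averaged 945 ± 94.7 in late arrest and 1093 ± 194 in early arrest (-0.19 ± 0.11), and SLC2A1, the glucose transporter of the blood-brain barrier, averaged 899 ± 99.8 in late arrest and 916 ± 51.2 in early arrest (-0.03 ± 0.08). BNIP3L, a mitophagy receptor, averaged 2181 ± 85.6 in late arrest and 1964 ± 249 in early arrest (0.16 ± 0.08). LDHA, which makes lactate from pyruvate, had -0.10 ± 0.11.

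Genes of the machinery that fails first in ischaemia did not pass either. Of 16 genes for ion pumps, potassium channels and ATP buffering, 0 passed, 1 was above 0 and 15 below (median -0.07), and 15 intervals lay within 2-fold. They ran from -0.45 ± 0.36 for SLC4A4, a sodium bicarbonate cotransporter, to 0.22 ± 0.18 for AK3, an adenylate kinase of mitochondria. ATP2A2, the calcium pump of the endoplasmic reticulum, averaged 6233 ± 394 in late arrest and 6791 ± 579.7 in early arrest (-0.12 ± 0.07), and CKB, brain creatine kinase, averaged 5173 ± 533 in late arrest and 5489 ± 388 in early arrest (-0.09 ± 0.08). Of 59 nuclear-encoded respiratory chain genes, 0 passed, with 19 above 0 and 40 below and a median of -0.05, and 58 intervals lay within 2-fold. They ran from -0.70 ± 0.54 for ATP5I, a subunit of ATP synthase that varied widely between arrays, to 0.22 ± 0.15 for NDUFV3, a complex I subunit. NDUFA2, also of complex I, had -0.25 ± 0.11. None of the mitochondrially encoded transcripts was found by symbol on the array. Of 57 cytosolic ribosomal protein genes, 0 passed, 10 were above 0 and 47 below, and all lay between -0.11 and 0.15, with a median of -0.05. Quantile normalization of the arrays gave 26 above and 31 below for this list (median -0.003), and median centring gave 5 above and 52 below (median -0.08). For the respiratory chain genes the same scalings gave 22 above and 37 below, and 6 above and 53 below. The slope on the 3′/5′ ratio was above 0 for 54 of the 57 ribosomal protein genes, with a median of 0.19 log2 per unit of log2 ratio, against -0.003 over all probe sets. It was below 0 for 14 of the 16 ion pump genes and 40 of the 59 respiratory chain genes. The part of the ratio in the differences of these lists was not tested.

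In the remaining lists, too, 0 members passed. Adenosine and purine genes had 2 above 0 and 5 below of 7, with a median of -0.07. Glutamate and GABA genes had 4 above and 5 below of 9 (median -0.05), where GAD2, a GABA-synthesising enzyme, averaged 1154 ± 274 in late arrest and 957 ± 132 in early arrest. The unfolded protein and integrated stress response had 7 above and 10 below of 17 (median -0.03), with ATF4, its central transcription factor, at -0.12 ± 0.09. Oxidative stress defence had 9 above and 15 below of 24 (median -0.03), and 12 each with a median of 0.002 under quantile normalization. Apoptosis and p53 targets had 1 above and 8 below of 9 (median -0.04). Cytokines, adhesion and NF-kB genes had 6 above and 11 below of 17 (median -0.05), and the chemokine CCL2 averaged 57.3 ± 27.1 in late arrest and 106 ± 62.7 in early arrest (-0.61 ± 0.32). IL1B, the cytokine interleukin-1 beta, had 89.4, 78.2 and 80.2 in CA0, 202, 205 and 106 in CA5, 126, 105 and 133 in CA20 and 93.3, 129 and 84.5 in CA30. All CA5 arrays lay above all CA0 arrays, and the log2 difference of CA5 from CA0 was 0.87 ± 0.23 and did not pass (limma adjusted p = 1). Another IL1B probe set, dim and left out by the filter, had 16.5, 19.1 and 11.6 in CA0 and 50.8, 21.0 and 4.37 in CA5, so there the groups overlapped. The medians of all 12 lists with measured members lay below that of all probe sets, except oxidative stress defence and cytosolic ribosomal proteins under quantile normalization, where all probe sets had -0.01.

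**Figure D3:**
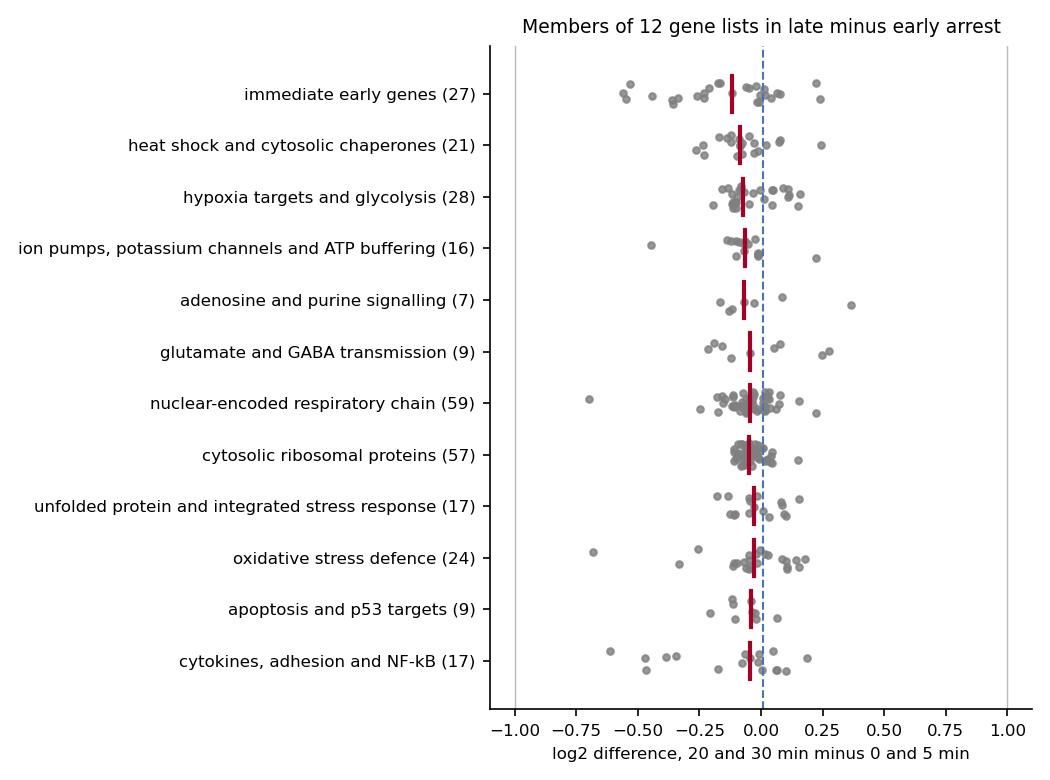
Log2 difference of late (20 and 30 min) minus early (0 and 5 min) arrest for each measured member of 12 gene lists, with the number of members in brackets. Grey points are genes, red bars are list medians, the dashed line is the median of all tested probe sets and the vertical lines mark 2-fold. No point lies beyond 2-fold and no member passed the test.

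Markers of cell types did not pass either. In bulk tissue, fewer cells of a type and less RNA per cell cannot be told apart. Neuronal markers had 7 above 0 and 8 below of 15 (10 and 5 under quantile normalization), astrocyte markers 3 above and 9 below of 12 (median -0.06), and oligodendrocyte markers 9 above and 2 below of 11 (median 0.09). Endothelial markers had 7 above and 6 below of 13, smooth muscle and pericyte markers 6 above and 3 below of 9, and microglial markers 4 above and 2 below of 6. These splits depended on the times compared. Over minutes, microglial markers had 1 slope above 0 and 5 below, and against CA0 they had 1 above and 5 below in CA5, 3 above and 3 below in CA20 and 0 above and 6 below in CA30 (median -0.28). Oligodendrocyte markers against CA0 had 2 above and 9 below in CA5, 9 above and 2 below in CA20 and 3 above and 8 below in CA30. Their slopes on the 3′/5′ ratio were above 0 for 9 of 11, and those of endothelial markers for 1 of 13. Single markers overlapped between late and early arrest. SNAP25 averaged 10268 ± 1090 in late arrest and 11319 ± 1283 in early arrest (-0.14 ± 0.09), and GFAP, the astrocyte filament protein, averaged 6527 ± 922 in late arrest and 6892 ± 1054 in early arrest (-0.08 ± 0.11). MBP, a myelin protein, averaged 13997 ± 2367 in late arrest and 14252 ± 2135 in early arrest (-0.03 ± 0.12). CLDN5, the tight junction protein of brain endothelium, averaged 432 ± 124 in late arrest and 391 ± 82.4 in early arrest (0.12 ± 0.18), and ABCG2, an efflux pump of the same cells, averaged 1037 ± 177 in late arrest and 1141 ± 145 in early arrest (-0.15 ± 0.12). Another ABCG2 probe set had 288, 320 and 277 in CA20 and 383 to 533 on the other arrays. GGA2, an adaptor of protein sorting at the Golgi, averaged 487 ± 43.2 in late arrest and 532 ± 83.3 in early arrest (-0.11 ± 0.10). A dimmer GGA2 probe set had 2.53, 2.91 and 6.62 in CA0 and 12.7 to 44.7 on the other arrays. Red blood cell markers had 1 above and 3 below of 4: HBM, a globin, averaged 75.4 ± 16.4 in late arrest and 102 ± 19.6 in early arrest, and HBB, beta globin, averaged 935 ± 83.5 in late arrest and 881 ± 89.0 in early arrest. NPY, the neuropeptide of a class of cortical interneurons, averaged 1329.7 ± 563 in late arrest and 875 ± 222 in early arrest (0.53 ± 0.25) and was brightest in CA20 replicate 1.

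As a comparison with cortex whose blood flow had returned, SAL30 was set against late arrest in a fit of all 30 arrays. Chest compressions in SAL30 pigs ended 20 min after the onset of arrest, so SAL30 and CA20 pigs had the same time without a spontaneous heartbeat, and SAL30 cortex had 30 min of flow after it. In this comparison 53 probe sets (0.315%) were higher and 3 (0.0179%) were lower, by limma with Benjamini-Hochberg adjustment. Leaving out 1 array of these groups at a time gave 39 to 71 calls. The SAL30 group has 3 arrays and differs from late arrest in resuscitation, infusion and time since arrest, which cannot be told apart.

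Among the immediate early genes, 10 of 27 were higher in SAL30 and 0 lower, with 0.315% of all probe sets called higher. ATF3 had 643, 454 and 686 in SAL30, all above every late array, and averaged 594 ± 124 in SAL30 and 46.5 ± 25.1 in late arrest (log2 difference 3.36 ± 0.26, SE, limma adjusted p = 7.89e-09). FOS had 4648, 3675 and 4003 in SAL30 and averaged 4109 ± 495 in SAL30 and 877 ± 479 in late arrest (2.33 ± 0.36). JUN had 3277, 2825 and 4225 in SAL30 and averaged 3442 ± 715 in SAL30 and 1154 ± 326 in late arrest (1.59 ± 0.26). DUSP1, a phosphatase of MAP kinases, averaged 3394 ± 607 in SAL30 and 609.6 ± 207 in late arrest, and CYR61, a matrix-associated signalling protein, averaged 486 ± 157 in SAL30 and 83.5 ± 39.0 in late arrest. Of the genes that did not pass, EGR1 differed by 0.66 ± 0.39 and NR4A3 by 0.02 ± 0.22.

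Of the heat shock and chaperone genes, 5 of 21 were higher in SAL30: HSPA6, HSP70.2, DNAJB1, BAG3 and HSPB1. HSPA6 had 2673, 2133 and 3602 in SAL30 and averaged 2803 ± 743 in SAL30 and 131 ± 20.5 in late arrest (4.24 ± 0.17, limma adjusted p = 2.89e-15), which was the largest change of a named gene. DNAJB1 averaged 2684 ± 480.3 in SAL30 and 387 ± 64.2 in late arrest, and BAG3, an HSP70 co-chaperone, averaged 1330.1 ± 389.9 in SAL30 and 292 ± 26.4 in late arrest. HSPA8 averaged 8693 ± 1217 in SAL30 and 8534 ± 624 in late arrest, and its log2 difference of 0.02 ± 0.11 was not called. Outside these lists CXCL2, a chemokine for neutrophils, averaged 407 ± 64.8 in SAL30 and 19.5 ± 7.64 in late arrest (3.59 ± 0.37), and SLC2A3, the neuronal glucose transporter, averaged 933 ± 93.5 in SAL30 and 480.3 ± 54.6 in late arrest (0.94 ± 0.13). DIEXF, a nucleolar protein, was lower and averaged 240.1 ± 48.3 in SAL30 and 423 ± 111 in late arrest. Ssc.21096.1.S1_at was also among the 3 that were lower, but it was chosen by the same late arrays that this comparison subtracts.

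**Figure D4:**
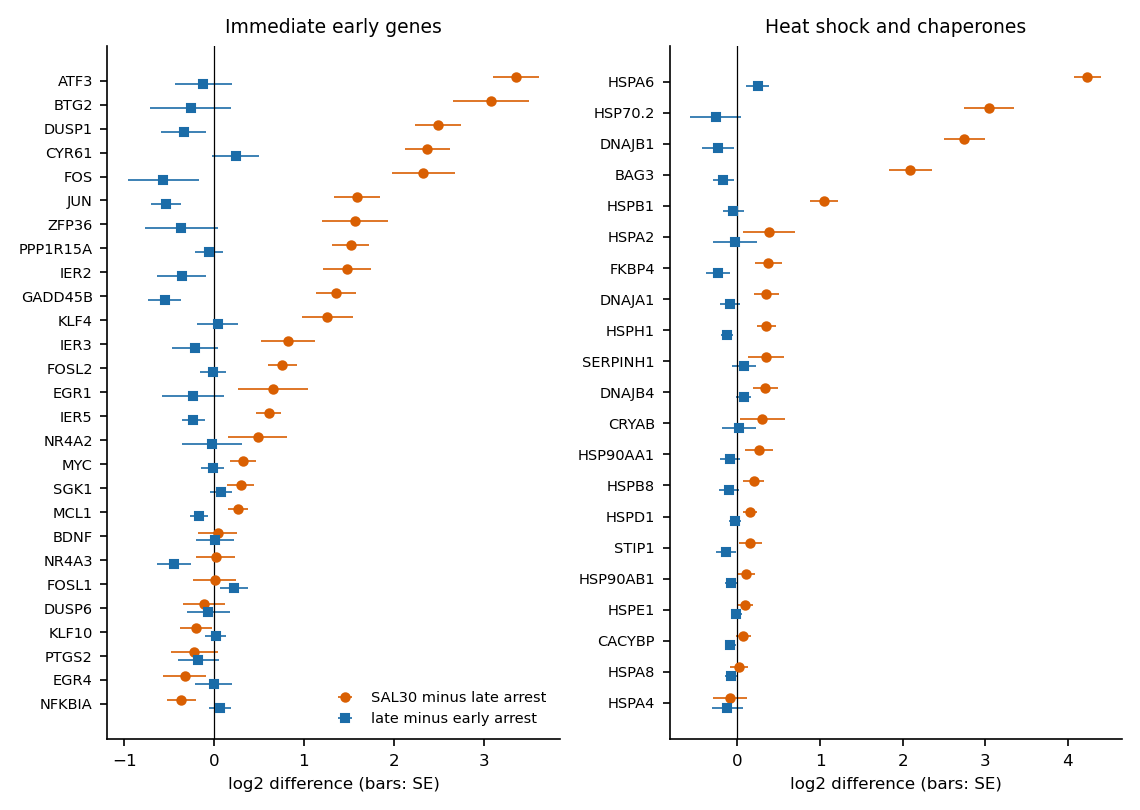
Log2 difference of each immediate early gene and each chaperone gene in SAL30 minus late arrest (orange circles) and in late minus early arrest (blue squares), with standard errors as bars. Blue points lie between -0.56 and 0.24 in both lists, and 15 genes (10 and 5) passed in SAL30 minus late arrest, up to 4.24 for HSPA6.

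More probe sets went with the 3′/5′ ratio of the array than with minutes of arrest. In a regression on the 3′/5′ ratio over the 12 arrays, 85 probe sets (0.506%) were higher and 449 (2.67%) were lower with a rising ratio, by limma with Benjamini-Hochberg adjustment. RHOB, a small GTPase, had 44.6, 130.4 and 53.9 in CA0, 49.9, 80.1 and 57.5 in CA5, 112, 9.36 and 6.66 in CA20 and 102, 117 and 147 in CA30. The 2 CA20 arrays of highest ratio were by far the dimmest, and the slope was -1.71 ± 0.26 log2 per unit of log2 ratio (SE, limma adjusted p = 0.00559). SLC3A1, a subunit of an amino acid transporter, had a slope of -1.61 ± 0.15. CLTC, the clathrin heavy chain, had -1.43 ± 0.21.

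Probe sets of the same gene differed in this respect. For THY1, a neuronal surface glycoprotein, 1 probe set had a slope of -1.54 ± 0.26 and passed, and the brighter one had -0.07 ± 0.10 and did not. For GLUL, glutamine synthetase, the slopes were -1.42 ± 0.29, which passed, and -0.08 ± 0.17, which did not. Among genes that were higher with the ratio, ELAC2, which trims the 3′ ends of tRNA precursors, had 0.73 ± 0.15, and HMGN3, a nucleosome-binding protein, had 0.62 ± 0.10. Of the gene lists, 2 respiratory chain genes (COX6C and ATP5J) and 2 ribosomal protein genes (RPS23 and RPS27A) were higher with the ratio. ATP2B1, KCNMA1 and AK3 of the ion pump list were lower, as were ADK, HPRT1 and EPAS1. None of these passed in late against early arrest, where RHOB differed by -0.10 and SLC3A1 by -0.01.

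The slopes rested on few arrays. The count of 534 fell to 3 without CA20 replicate 3, to 287 without CA20 replicate 2, to 180 without CA30 replicate 3, and to 1 without both CA20 arrays of highest ratio. With the ratio as a covariate, Ssc.21096.1.S1_at still passed over minutes (limma adjusted p = 0.0114).

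**Figure D5:**
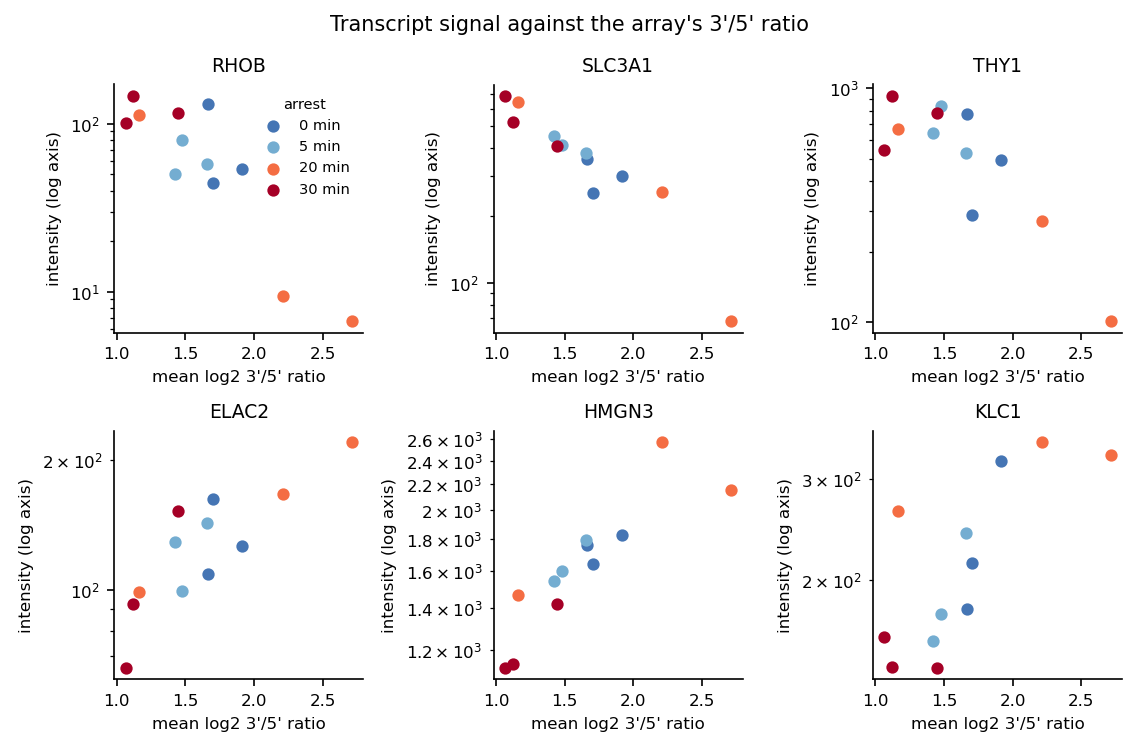
Intensity on a log axis against the array's mean log2 3′/5′ ratio for 3 transcripts that were lower with the ratio (RHOB, SLC3A1, THY1) and 3 that were higher (ELAC2, HMGN3, KLC1). Each point is 1 of the 12 arrays, coloured by minutes of untreated arrest; the 2 CA20 arrays with ratios of 2.21 and 2.71 lie at the right of each plot.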

How the data were processed

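Total RNA of pig cerebral cortex was labelled with biotin and measured on an Affymetrix porcine array, per the labels. The deposited intensity values are linear and the authors scaled each array with GCOS, per the submitters' processing notes (version not given in the sources used here). Every array had a mean of 300.05 or 300.06 once the lowest and highest 2% of probe sets were set aside. Of 24123 probe sets, 124 controls (AFFX) were left out. Of the other 23999, 10110 had 1 symbol in the platform's table, 157 several and 13732 none.

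Probe sets with a mean log2(intensity + 16) below the 30th percentile over all 30 arrays (an intensity of 29.5) were left out. Trend, late against early arrest and slope on the 3′/5′ ratio were fitted on the 12 arrays, and SAL30 against late arrest on all 30, with limma 3.58.1 in R 4.3.3 (intensity trend, two-sided, Benjamini-Hochberg over all tested probe sets at 0.05). The scripts were tested on simulated data. Single measures were compared with exact permutation tests (scipy 1.17.1). For lists, the brightest probe set of each gene was used.

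Genes were taken from a rule: every probe set called, the 8 higher and 8 lower with 1 symbol of smallest p whose 6 late and 6 early arrays did not overlap, some of the 3 members of each list of smallest p, and a fixed set (FOS, EGR1, JUNB, ATF3, HSPA6, HSP70.2, HSPA8, VEGFA, SLC2A1, SLC2A3, IL1B, ABCG2, GGA2, MBP, GFAP, CLDN5, SNAP25, TTR, HBB, and a further gene that is not reported here; JUNB was not found by symbol). Other genes in the text illustrate a list or a setting and were chosen after their values were seen. The groups, the 13 gene lists and 13 marker lists were chosen with earlier results of these data known. Alternatives were pseudocounts of 1 and 64, a filter at the 50th percentile or none, quantile normalization, median centring, no intensity trend, array weights, the ratio as a covariate, the replicate number as a block, other fits, log2(minutes + 1), and each group or array left out.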

Additional observations from a re-analysis of the deposited data

Results flagged for a closer look

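In 188 groups of 6 arrays, 17 held 1 array that lay far from the other 5, relative to the range of the group; chance alone flags about 1 in 20 groups. The probe set that passed, Ssc.21096.1.S1_at, had 235 in CA5 replicate 1, where the other early arrays reached 136. HSP70.2 had 4472 in CA0 replicate 2, where the next early array had 1497. FOS had 1832 and CCL2 111.6 in CA20 replicate 1, where the next late arrays had 769 and 53.1. GAD2 had 1676 in the same CA20 array, with a next late value of 1146. GLUL was low in CA20 replicate 2, at 4543, and ALDOC was high and SLC25A4 low in CA20 replicate 3, at 6486 (6485.5) and 1569. GPX1 had 176 in CA30 replicate 1, where the next late array had 971. In the same CA30 array TMEM216 was high at 56.6 and SOX10 low at 19.6. Early arrays that stood apart were WDR41 at 144 in CA5 replicate 1, SUPV3L1 at 34.9 and GABRA4 at 568 in CA0 replicate 2, and FOLR1 at 102 in CA5 replicate 3. EIF1AY, a gene with a Y-linked name, had 1.18 in CA30 replicate 2, where the next late array had 508, and 638 in CA5 replicate 3, where the next early array had 458. Over the series 6 of 30 arrays had EIF1AY below 10 and the others lay above 375.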

How the results depend on the processing

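The single call over minutes and in late against early arrest was kept under pseudocounts of 1 and 64, both other filters, quantile normalization, median centring, no intensity trend, array weights, the ratio as a covariate and the fit of all 30 arrays. The count over minutes was 0 with log2(minutes + 1), 0 without CA0 and 0 without CA30, and that of late against early arrest was 0 without CA0, 0 without CA30 and 0 with the ratio and the replicate block together, a setting chosen after seeing the data (limma adjusted p of Ssc.21096.1.S1_at = 0.0587). It was 2 without CA5 (TMEM128 added) and 2 without CA20 (NCF1 added); the causes were not tested. With no filter, which tests more probe sets, 1 departed from a line, 1 passed in CA20 against CA0 (DRD2 in both) and 346 followed the ratio. The fit of all 30 arrays, which shares the spread of 10 groups, gave 2 in CA20 and 2 in CA30 against CA0. Without both CA20 arrays of highest ratio, a setting also chosen after seeing the data, 1 followed the ratio. Leaving out 1 array at a time gave 0 to 2 calls over minutes (0 without CA30 replicate 3, 2 without CA20 replicate 1), 1 to 2 in late against early arrest (2 without CA20 replicate 1), 0 to 5 for departure from a line (1 without CA0 replicate 3 or CA5 replicate 3, 3 without CA20 replicate 1, 5 without CA20 replicate 2), 0 to 1 in CA5 (1 without CA0 replicate 3 or CA5 replicate 3), 0 to 14 in CA20 (1 without CA0 replicate 3, 14 without CA20 replicate 2) and 0 to 1 in CA30 against CA0 (1 without CA0 replicate 3, CA5 replicate 1 or CA30 replicate 3), 3 to 542 for the ratio and 39 to 71 in SAL30 against late arrest. Of 2778 values of 93 named probe sets under alternatives, 2700 stayed within the limits of their error, 75 moved, 3 lost the call and 0 turned sign from a called value. In the disjoint pairing CA20 against CA5 and CA30 against CA0, added after seeing the data, 42.9% of probe sets had the same sign, with r = -0.18.

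With the replicate number as a block, 1 probe set passed over minutes (limma adjusted p = 0.0348) and 1 in late against early arrest (limma adjusted p = 0.0325), both Ssc.21096.1.S1_at. Arrays of the same number had correlations of their deviations from -0.11 to 0.31 over 18 pairs (median 0.06). Pairs of different number had -0.24 to 0.17 (median -0.03), and 6 of 12 arrays correlated best with their own number. The numbers were not taken as pairs, and whether arrays of the same number share a batch was not tested.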

Other observations

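Unnamed probe sets followed the pattern of DRD2 on the CA20 arrays. Ssc.29371.1.A1_at had 2564, 333 and 1533 in CA20, against 58.3 to 265 on the other 9 untreated arrest arrays. Ssc.778.1.A1_at had 3429, 866 and 2088 in CA20, against 297 to 708 on the other 9. In late against early arrest neither passed, with log2 differences of 1.54 and 0.97.

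Ssc.13780.11.S1_x_at had 0.655 and 0.794 in CA30 replicates 1 and 2 and 111 in CA30 replicate 3, where the CA0 and CA5 arrays lay between 88.4 and 222.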
